A study of Mus musculus with 6 samples.

Results

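The genes described here are 10 that recycle and break down purine nucleotides: the AMP deaminases Ampd2 and Ampd3, the kinases Adk and Ak1, the purine nucleoside phosphorylases Pnp and Pnp2, the phosphoribosyltransferases Hprt and Aprt, and the 5′-nucleotidases Nt5c and Nt5e. They were matched by gene symbol, and all 10 were found among the 19401 genes listed in at least 1 library, of which 17705 had an Entrez identifier. The group was chosen from the contrast of efavirenz (EFV)-treated and control animals, in which the study lists Ampd3 and Pnp2 as changed in RNA. The differences between groups given for the members are therefore a description and support nothing by themselves.

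Retinal RNAseq was carried out on 6 libraries of 5XFAD mice aged 9 months, 3 from control and 3 from EFV-treated animals; the strain is used to model Alzheimer's disease. All mice of both groups were hemizygous F1 animals on the B6SJL background, which carry transgenes for mutant human amyloid precursor protein and mutant human presenilin 1 (in this strain driven by the neuronal Thy1 promoter), and the study describes them as male and free of the rd1 and rd8 alleles, which damage the retina. EFV, an anti-HIV drug, was given in drinking water that held a trace of Tween detergent from 3 to 9 months of age at 0.08 mg/kg of body weight according to the sample labels (the study's methods state a somewhat higher dose), and control mice received the water and detergent without the drug. Each library was a pool of retina plus retinal pigment epithelium (RPE) from 5 to 6 mice, so errors given here describe pools rather than single animals, and fewer cells of a type in a pool cannot be told apart from less RNA per cell.

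Purine nucleotides are made anew by a long, energy-costly pathway or are rebuilt from free bases and nucleosides by salvage. AMP deaminase converts AMP to IMP, the nucleotidases and nucleoside phosphorylases take nucleotides down to nucleosides and bases, and the phosphoribosyltransferases and adenosine kinase carry these back up. In the retina, photoreceptors have a large demand for ATP and for GTP, from which the cyclic GMP of phototransduction is made, and extracellular adenosine acts on receptors of neurons and vessels.

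The counts assigned to genes summed to between 23455167 and 24590278 per library. Rod markers (summed FPKM of 8 genes from 23568 to 25312), cone, Müller glia, endothelial and RPE markers were all present, as a pool of retina plus RPE should show. Some libraries stood apart in genes that mark other material. Lens markers summed to 1777 FPKM in control library 3 and to between 15.8 and 90.4 in the other libraries, RPE markers to 22.5 in control library 2 and to between 43.4 and 54.8 elsewhere, and 4 Y-linked genes (Ddx3y, Uty, Kdm5d and Eif2s3y) to 25.2 in EFV library 3 and to between 51.9 and 69.8 elsewhere. The limits of the study, given below, were passed between groups by 7 of 7 lens and 2 of 7 RPE markers tested. No rod, cone, Müller glia, endothelial, erythroid or microglia marker tested passed them, nor did the Y-linked genes. Which markers pass without control library 3, or without any other library, was not tested. For the members and the other purine genes, a change in which genes passed when a library was left out is given beside the result.

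Pnp and Pnp2 are neighbouring near copies on chromosome 14, and their sequences are shown because the counts of both depend on how the reads they share were divided. On the mm10 build Pnp (Entrez 18950) spans 50944303 to 50953412 and Pnp2 (Entrez 667034) spans 50956141 to 50964751, with 2728 bases between them. Their coding sequences, of 870 and 918 bases in the GENCODE M21 transcripts, were identical at 852 of 868 aligned bases (98.2%). Of the 869 stretches of 50 bases in the coding sequence of Pnp2, 425 (48.9%) also occur in that of Pnp, and a read lying within such a stretch fits both genes equally well. Over the whole transcripts, from which the reads come, 1214 of 1358 aligned bases were identical (89.4%) and 438 of 1323 stretches of Pnp2 (33.1%) were shared. A gapless aligned stretch of 205 bases within a coding exon differs at 4 positions, which are in capitals. It ends before the last coding base in both genes. The stretch lies at chr14:50951404-50951608 in Pnp and at chr14:50964256-50964460 in Pnp2, both on the plus strand.
Pnp: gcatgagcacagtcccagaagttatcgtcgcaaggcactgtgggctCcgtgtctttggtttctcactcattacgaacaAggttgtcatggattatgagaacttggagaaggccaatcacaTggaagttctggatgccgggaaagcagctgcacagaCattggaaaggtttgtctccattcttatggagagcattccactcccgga
Pnp2: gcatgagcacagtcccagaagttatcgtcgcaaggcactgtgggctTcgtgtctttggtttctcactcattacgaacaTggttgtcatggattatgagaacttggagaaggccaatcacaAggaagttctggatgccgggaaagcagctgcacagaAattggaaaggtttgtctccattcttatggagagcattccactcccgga
For comparison, the coding sequences of Ampd2 and Ampd3 were identical at 63.5% of aligned bases and shared no stretch of 50 bases, so reads of these paralogs can be told apart.

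In control retina the 10 genes covered a range of 159.9-fold in FPKM, a level per length of the transcript that can be compared between genes. Hprt was the most abundant at 99.7 ± 4.24 FPKM (SD, n = 3), a level above that of 97.2% of the 17303 genes with an Entrez identifier that were detected in control. Nt5e followed at 47.5 ± 0.375 (SD, n = 3), then Ampd2 at 23.2 ± 1.17 (SD, n = 3) and Ak1 at 21.9 ± 0.288 (SD, n = 3). Aprt at 13.5 ± 0.728 (SD, n = 3) lay close to Adk and Nt5c, whose control libraries ran from 11.33 to 13.09 and from 10.97 to 12.87 FPKM. Pnp at 6.79 ± 0.65 and Ampd3 at 4.82 ± 0.265 (SD, n = 3 each) were lower, and Pnp2 was the least abundant at 0.623 ± 0.15 FPKM (SD, n = 3), above 25.4% of the detected genes. Neighbours in this order did not overlap over the control libraries except for Ampd2 and Ak1, Aprt and Adk, and Adk and Nt5c, whose FPKM ranges did. In control retina Ampd2 thus exceeded Ampd3, Hprt exceeded Aprt, Nt5e exceeded Nt5c and Pnp exceeded Pnp2 in every library.

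**Figure D1:**
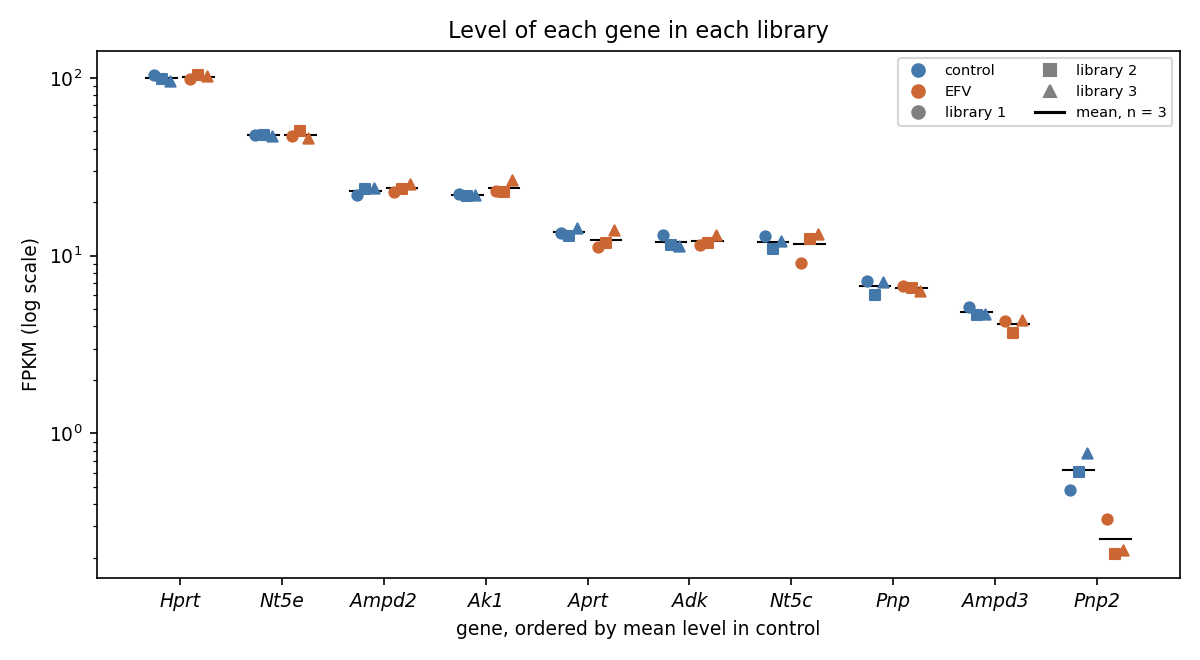
FPKM (log scale) of the 10 genes in each library; blue symbols are control, orange symbols EFV, the shape gives the library number and black bars are group means (n = 3). Levels run from about 100 FPKM for Hprt to under 1 for Pnp2, and the orange symbols lie apart from the blue ones for Ampd3, Pnp2 and Ak1.

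Most members differed little between EFV-treated and control mice. All 10 reached the minimum of 10 counts in 3 libraries that a gene needed to be tested, Pnp2 through the control libraries alone. The log2 fold changes (EFV-treated over control, edgeR after scaling by the trimmed mean of M-values, TMM) of 6 of the 10 lay within 0.1 of 0, as did those of 70.1% of all 15537 genes tested. Of the members, 7 were lower and 3 higher, with a median log2 fold change of -0.04 beside 0.0012 for all genes tested. At the limits of the study, which are an unadjusted p of 0.05 and a difference of at least 0.0976 in log2 units and were applied here to the quasi-likelihood test of edgeR, 2 of the 10 passed, Ampd3 and Pnp2, where 3.01% of all genes did (239 or 1.54% lower and 228 or 1.47% higher; 159 lower and 288 higher with scaling by total counts). The same 2 passed without control library 3, which held the lens markers, and without control library 2. These are the genes for which the group was put together, so nothing is read from this count. At an adjusted p of 0.05 edgeR called 0% of the genes tested (0 genes; 472 had an unadjusted p of 0.05 or less), and DESeq2 called 11 genes and limma on log2(FPKM + 0.1) called 0.

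AMP deamination was represented by a more abundant and a less abundant gene, which gave different values. Ampd2 (Entrez 109674, chromosome 3 from 108074059 to 108086687 on mm10), the form found in most tissues, had 21.83, 23.70 and 23.98 FPKM in control libraries 1, 2 and 3 and 22.78, 23.74 and 25.24 in EFV libraries 1, 2 and 3. The groups overlapped, and the log2 fold change of Ampd2 was 0.04 (standard error 0.05).

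Ampd3 (Entrez 11717, chromosome 7 from 110767790 to 110812409 on mm10), known as the erythrocyte form, had 5.12, 4.63 and 4.70 FPKM in the control and 4.29, 3.68 and 4.35 in the EFV libraries. Every EFV library lay below every control library, with the lowest value in EFV library 2; this holds for 2.68% of all genes tested by FPKM and for 4.18% by TMM-scaled counts. The mean FPKM was 14.7% lower in EFV-treated mice, and the log2 fold change was -0.25 (standard error 0.08), on 1380 counts in the control and 1183 in the EFV libraries. Without 1 library at a time it lay between -0.29 (without EFV library 3) and -0.19 (without EFV library 2). Ampd3 made up 17.2% ± 1.53 of the summed FPKM of Ampd2 and Ampd3 in control and 14.6% ± 1.2 in EFV-treated mice (SD, n = 3 each). Erythroid markers (7 of 7 detected) summed to between 131 and 264 FPKM in control and between 114 and 289 in EFV libraries, so these ranges overlapped. Microglia and macrophage markers (7 of 7 detected) summed to between 17.4 and 18.5 FPKM in control and between 16.4 and 17.2 in EFV libraries; none of the 6 tested passed the limits of the study, and their part in the value of Ampd3 was not tested.

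Of the kinases, Adk was alike in both groups and Ak1 was slightly more abundant in EFV libraries. Adk (Entrez 11534, chromosome 14 from 21052574 to 21448569 on mm10), which phosphorylates adenosine to AMP, had 13.09, 11.49 and 11.33 FPKM in control and 11.47, 11.85 and 13.06 in EFV libraries. A high library occurred in each group, and the log2 fold change was -0.0022 (standard error 0.08). Ak1 (Entrez 11636, chromosome 2 from 32621758 to 32635058 on mm10), the cytosolic adenylate kinase that interconverts ATP, ADP and AMP, had 22.14, 21.57 and 21.93 FPKM in control and 23.10, 22.77 and 26.57 in EFV libraries. All EFV libraries lay above all control libraries, as they did for 4.99% of all genes tested by FPKM and 3.95% by TMM-scaled counts. The log2 fold change of Ak1 was 0.12 (standard error 0.06), which did not pass the limits of the study, and it was 0.06 without EFV library 3, the library with 26.57 FPKM and with low Y-linked genes, whose part in the value was not tested.

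For the nucleoside phosphorylases, which release hypoxanthine and guanine from inosine and guanosine, the abundant gene was alike in both groups and the scarce copy was lower in EFV-treated mice. Pnp had 510, 409 and 502 counts (rounded expected counts) in control and 480, 464 and 444 in EFV libraries. The EFV values lay inside the control range, which control library 2 widened, and the log2 fold change was -0.06 (standard error 0.08). Without control library 2 it was -0.13 (standard error 0.07), still short of the limits of the study, and it was -0.02 (standard error 0.09) without control library 1 and likewise without control library 3.

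Pnp2 had 14, 17 and 22 counts in control and 9, 6 and 6 in EFV libraries, or 0.48, 0.61 and 0.78 FPKM against 0.33, 0.21 and 0.22. All EFV libraries lay below all control libraries, a pattern with the same background as for Ampd3. The log2 fold change was -1.35 (standard error 0.36), on 53 counts in the control and 21 in the EFV libraries together. Pnp2 reached the minimum of 10 counts in 3 control libraries and in 0 EFV libraries, so it was tested only through the group in which it is higher. On the scale of log2(FPKM + 1), which weighs such low values down, the fold change of Pnp2 was -0.37 (standard error 0.08).

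Because reads of the near copies were divided by estimation, the counts of Pnp and Pnp2 were also summed. The sum was 524, 426 and 524 in control and 489, 470 and 450 in EFV libraries, and the log2 fold change was -0.09 (standard error 0.08), which did not pass the limits of the study. Pnp2 held 2.67%, 3.99% and 4.20% of these counts in control and 1.84%, 1.28% and 1.33% in EFV libraries. Over all libraries of a group, Pnp had 1421 counts in control and 1388 in EFV-treated mice beside the 53 and 21 of Pnp2. The difference in Pnp2 thus rests on a small share of the reads of this pair, and whether those reads were assigned to the right copy cannot be read from values per gene.

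**Figure D2:**
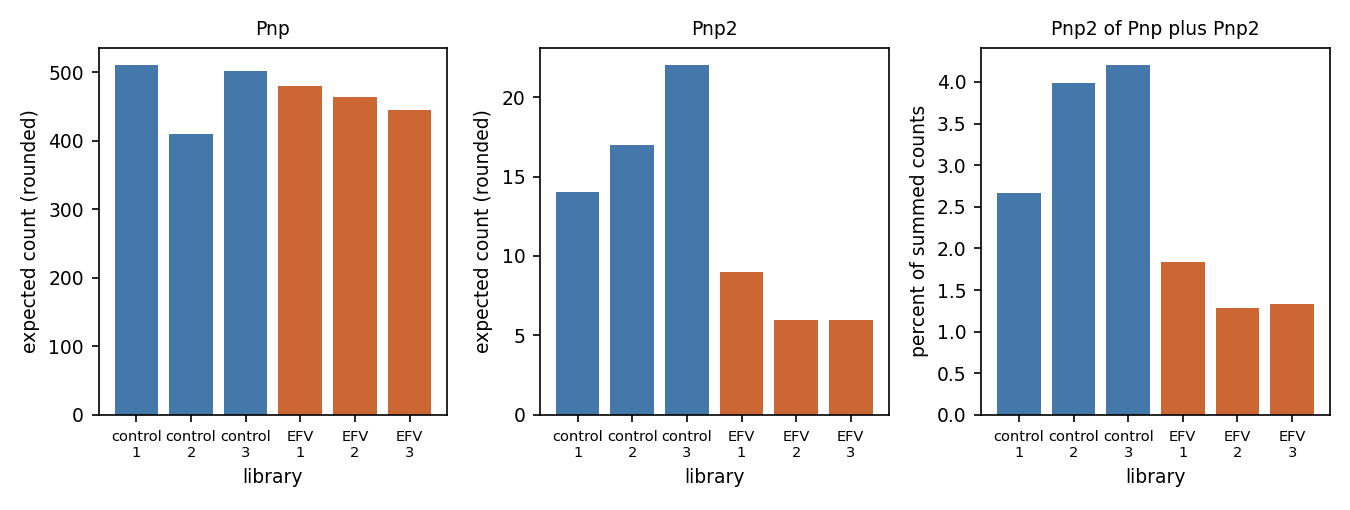
Rounded expected counts of Pnp (left) and Pnp2 (middle) and the share of Pnp2 in their sum (right, percent) in each library, control in blue and EFV in orange; each bar is 1 library and all axes start at 0. The Pnp bars overlap between groups, whereas the Pnp2 counts run from 14 to 22 in control and from 6 to 9 in EFV libraries.

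The phosphoribosyltransferases, which attach a ribose phosphate to free bases, overlapped between the groups. Hprt (Entrez 15452, chromosome X from 52988078 to 53021660 on mm10), the enzyme lacking in Lesch-Nyhan disease, had 104.29, 98.80 and 95.94 FPKM in control and 98.61, 103.33 and 102.31 in EFV libraries. Its log2 fold change was 0.01 (standard error 0.05), and EFV library 3 lay inside the range of the others. Aprt (Entrez 11821, chromosome 8 from 122574637 to 122576907 on mm10), which salvages adenine, had 13.44, 12.83 and 14.28 FPKM in control and 11.16, 11.75 and 13.90 in EFV libraries. EFV libraries 1 and 2 lay below all control libraries and EFV library 3 within their range. The log2 fold change of Aprt was -0.16 (standard error 0.10) and did not pass the limits of the study, whereas without EFV library 3 it was -0.25 (standard error 0.10) and passed them, and without EFV library 1 it was -0.09 (standard error 0.11).

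The nucleotidases also overlapped. Nt5e (Entrez 23959, chromosome 9 from 88327609 to 88372089 on mm10) encodes CD73, the cell surface enzyme that makes adenosine from extracellular AMP and that is known as a marker of developing rods. It had 47.76, 47.74 and 47.10 FPKM in control and 47.35, 50.09 and 45.66 in EFV libraries, and its log2 fold change was -0.01 (standard error 0.05). The control libraries were closer to each other than the EFV libraries, of which library 2 was the highest and library 3 the lowest of all 6. Nt5c (Entrez 50773, chromosome 11 from 115490420 to 115492070 on mm10), a cytosolic nucleotidase that acts on deoxyribonucleotides, had 12.87, 10.97 and 12.02 FPKM in control and 9.11, 12.41 and 13.16 in EFV libraries. EFV library 1 was the lowest of all 6 and EFV library 3 the highest. The log2 fold change of Nt5c was -0.07 (standard error 0.14) with all libraries and 0.08 (standard error 0.11) without EFV library 1. In its proteomics the study lists the protein NT5C as changed with EFV. Protein was not examined here, and the values above are of RNA.

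**Figure D3:**
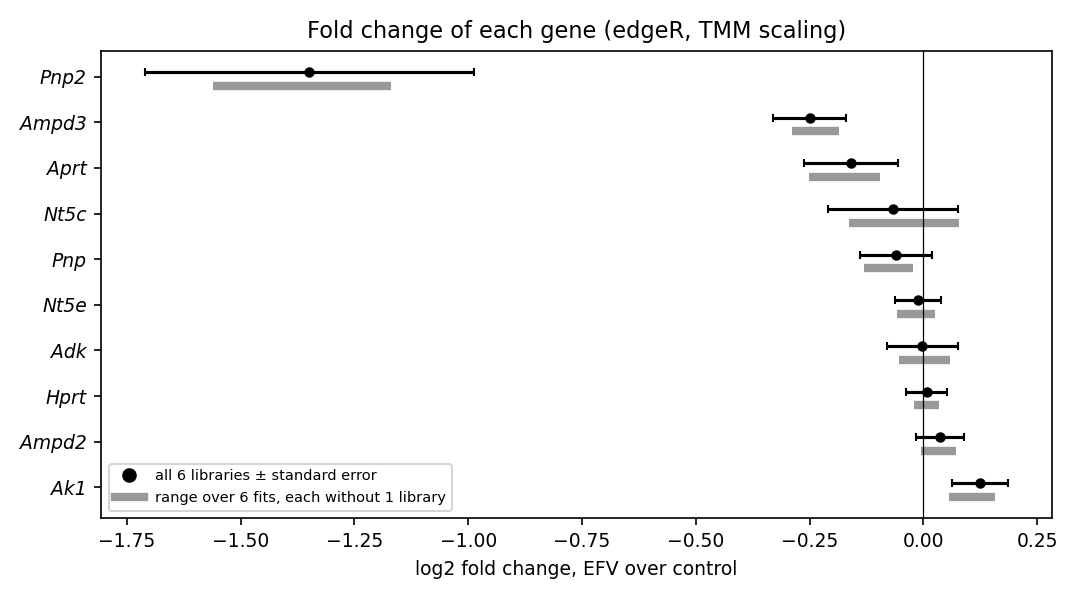
Log2 fold change of each gene, EFV over control, with the standard error (black, all 6 libraries) and the range over 6 fits that each leave out 1 library (grey). The grey range stays on the left of 0 for Pnp2, Ampd3, Aprt and Pnp and on the right for Ak1, and it crosses 0 for the other 5 genes.

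The spread between pools was taken as the SD within groups of log2 TMM-scaled counts, with a constant added before the logarithm. This spread did not set the members apart from other genes. Among the 500 genes of most similar abundance, that of Hprt ranked at the 34.8th percentile (SD 0.049), Nt5e at the 49.0th (0.0588) and Ampd3 at the 47.2nd (0.0928). Nt5c was the most variable of the 10 in these terms (percentile 81.4). Its SD was 0.202 where the median of similar genes was 0.128. Pnp2 ranked lowest, with 0.165 where the median was 0.250 (percentile 19.2). The added constant narrows the spread of scarce genes, so 0.165 understates the spread of the plain counts of Pnp2. The rank of Pnp2 without the constant was not tested. The average length of the transcripts in use, which the authors' program estimated in each library, moved little for the members with several transcripts: from 3487 to 3529 bases for Ampd2, 3979 to 4022 for Ampd3, 1818 to 1829 for Adk and 2085 to 2088 for Ak1.

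Other genes around these enzymes were examined in lists by role. Of 88 genes 73 reached the count minimum, 42 with a higher and 31 with a lower value in EFV-treated mice and a median log2 fold change of 0.02. The limits of the study were passed by 1 of the 73 (1.37%), where 3.01% of all genes passed, and that gene was lower. Entpd4b, a relative of the listed Entpd4, was not among the 88 and also passed, as given below. With each library left out in turn the count ran from 0, without control library 2, to 3, without control library 3, the library with the lens markers; the 3 were Slc29a1, the adenylate kinase Ak4 and the ectonucleotidase Enpp2. The 1 gene that passed with all 6 libraries was Slc29a1, the equilibrative nucleoside transporter that carries adenosine across membranes. The study also lists Slc29a1 as changed. It had 19.27, 24.26 and 16.01 FPKM in control and 12.77, 16.39 and 15.87 in EFV libraries. The groups of Slc29a1 overlapped, its log2 fold change was -0.42 (standard error 0.15), and its adjusted p over all genes was 0.999 (edgeR, Benjamini-Hochberg). It did not pass the limits without control library 2, with a log2 fold change of -0.24, or without EFV library 1, with -0.31. Control library 2, where Slc29a1 was highest, was also the library with the lowest RPE markers; the part of these cells in the value was not tested.

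De novo synthesis, which builds the purine ring on ribose phosphate, gave 11 of 11 genes tested and 0 past the limits of the study with all 6 libraries (Ppat, its first committed enzyme, passed without EFV library 3), with log2 fold changes from -0.07 to 0.15. Its most abundant gene was Impdh1, the IMP dehydrogenase of photoreceptors that leads towards GTP, with 274.26, 300.57 and 306.41 FPKM in control and 276.37, 301.09 and 291.35 in EFV libraries, above all 10 salvage genes. Its log2 fold change was -0.04 (standard error 0.06). Among other kinases of nucleotides 12 of 15 were tested and 0 passed with all 6 libraries (Ak4 without control library 3), the most abundant being Guk1, which phosphorylates GMP, at 156 ± 7.63 FPKM in control and 158 ± 8.18 in EFV-treated mice (SD, n = 3 each). The other nucleotidases (4 of 6 tested) and the other genes listed under salvage and breakdown (15 of 17 tested) had 0 past the limits. Nt5c3, with 25.3 ± 0.566 FPKM in control (SD, n = 3), and Ahcyl1, with 101 ± 3.14 (SD, n = 3), were the most abundant of these lists. The second list was broad and took in the Ahcy-like genes Ahcyl1 and Ahcyl2, whose part in purine breakdown was not examined. The third AMP deaminase, Ampd1, did not reach the count minimum.

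Genes that act on purines outside the cell were also measured. Of the 13 ectonucleotidases in the list 11 were tested and 0 passed with all 6 libraries, with log2 fold changes from -0.15 to 0.36. The list held Entpd4, at -0.15 (standard error 0.55), but not the related gene Entpd4b. Entpd4b, which the study lists as changed, passed the limits with all 6 libraries, at -0.26 (standard error 0.08). Its adjusted p was 0.999 (edgeR, Benjamini-Hochberg), and its FPKM overlapped between groups. Most abundant in the list was Alpl, tissue-nonspecific alkaline phosphatase, at 102 ± 8.23 FPKM in control and 94.4 ± 5.36 in EFV-treated mice (SD, n = 3 each). The log2 fold change of Alpl was -0.13 (standard error 0.07). Alpl passed the limits of the study without control library 1, where its value was -0.20 (standard error 0.06), and with DESeq2, and the value was -0.07 (standard error 0.07) without control library 2. Enpp2, which makes lysophosphatidic acid, passed without control library 3, without EFV library 1 and with DESeq2. Entpd4b, Enpp2 and the other genes named for passing without a library were picked after their values were seen. The study itself, whose threshold rests on a Poisson distribution, lists Alpl and Enpp2 as changed. P2 receptors, which bind extracellular nucleotides, had 12 of 14 genes tested and 0 past the limits; P2rx4 was the most abundant at 3.14 ± 0.246 FPKM in control and 2.98 ± 0.332 in EFV-treated mice (SD, n = 3 each). With all 6 libraries Slc29a1 was the 1 gene past the limits among the 8 of 11 adenosine receptors and nucleoside transporters that were tested. Without EFV library 1 the adenosine receptor gene Adora2a passed in its place. Adora2a was scarce, with a mean of 0.19 FPKM, and its log2 fold change with all 6 libraries was -0.42 (standard error 0.45).

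**Figure D4:**
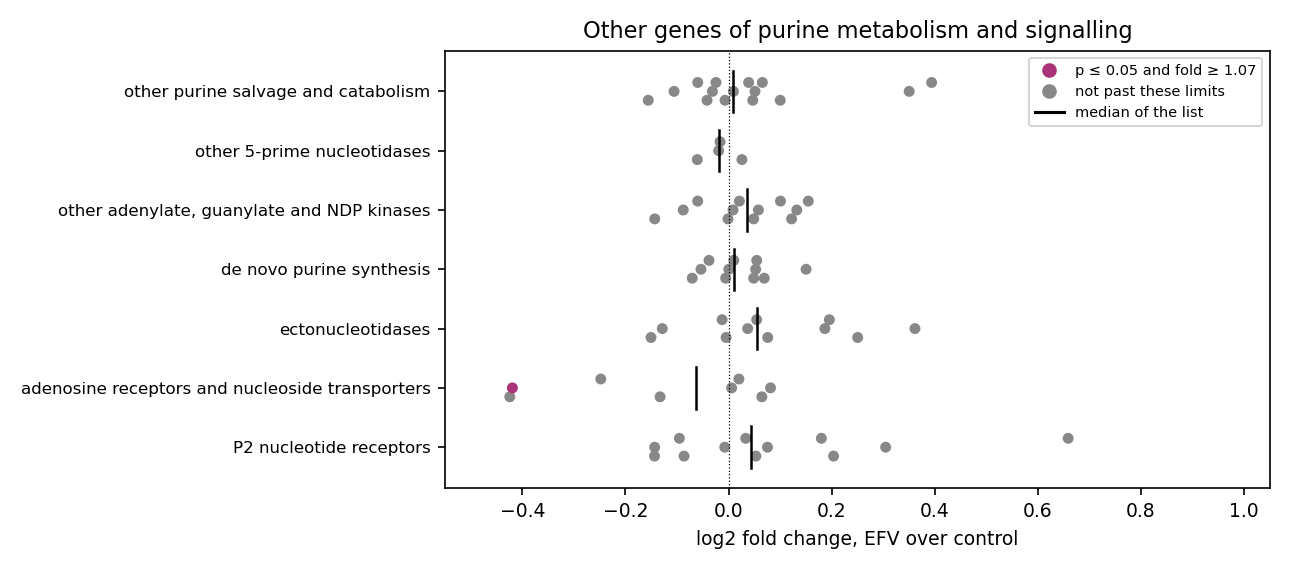
Log2 fold change, EFV over control, of the 73 tested genes that surround the 10 salvage genes, by list; each point is 1 gene, the black bar is the median of the list and the coloured point is past the limits of the study. The medians of the lists lie between -0.06 and 0.05, and the coloured point is Slc29a1 at -0.42.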

How the data were processed

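Reads of 6 pools of poly-A-selected RNA were aligned by the authors to mm10 with Bowtie2 2.2.5 and counted per gene with RSEM 1.2.12 (per the labels and methods; HISAT2 2.0.4 is also named). The deposited expected counts are not normalized and divide shared reads among genes; the authors' FPKM are per transcript length and library total. Read filter settings, annotation release and strandedness are not given in the sources used here. A gene missing from a file was taken as 0.

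Genes with at least 10 rounded expected counts in at least 3 libraries (15537) went into edgeR 4.0.16 in R 4.3.3 (quasi-likelihood test; TMM factors 0.984 to 1.01; two-sided; Benjamini-Hochberg over all genes), with group as the only term; the Poisson basis of the study was an alternative because it leaves out the spread between pools. The procedure was tested on simulated data. DESeq2 1.42.0 and limma 3.58.1 (log2 FPKM plus 0.1 or 1) were alternatives, with other scalings and filters, a replicate block and each library left out. No 2 libraries agreed within sampling noise (the smallest chi-square divided by its degrees of freedom was 5.47). Counting error weighs most on genes near 10 counts.

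The members and lists were chosen with earlier results of these data known. Named beside the 10 members were, in each list, the gene of highest mean FPKM and up to 2 past the limits of the study with the smallest p. Ak4, Ppat, Enpp2, Adora2a and Entpd4b were added after their values were seen. Gene positions are from RefSeq (GRCm38.p6) and transcripts from GENCODE M21 (same build), aligned with Biopython 1.88.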

Additional observations from a re-analysis of the deposited data

How the results depend on the processing

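Of 159 values of the 10 genes under 16 alternatives, 3 moved by more than 1 standard error: Ak1 without EFV library 3, Nt5c without EFV library 1 and Pnp2 by limma on log2(FPKM + 1). Ampd3, Pnp2, Pnp, Aprt and Ak1 kept their direction under every alternative that gave a value, and the sign turned under 7 alternatives for Adk, 4 for Nt5e, 2 for Hprt and 1 each for Ampd2 and Nt5c, all with values within 0.1 of 0. Pnp2 could not be fitted with at least 50 counts in 3 libraries, where 1 member passed the limits of the study in place of 2. When only counting error was modelled (Poisson), 4 members passed (Ak1 and Aprt in addition), as did 10 of the other purine genes, 2305 of all genes and, at an adjusted p of 0.05, 2043. DESeq2 gave 3 of the other purine genes, 269 of all genes and, at the adjusted p, 11 in place of 0. Leaving out each library in turn gave 2 to 3 members, 0 to 3 of the other purine genes (0 without control replicate 2, 3 without control replicate 3), 389 to 576 of all genes and 0 to 1 at the adjusted p (1 without EFV replicate 1). The summed Pnp and Pnp2 had log2 fold changes from -0.16 to -0.05 with each library left out and passed the limits under none of the 16 alternatives. Same-numbered libraries of the groups correlated weakly in their deviations (r = 0.106, 0.0789 and 0.105), each library best with its own number, a hint from the data only; with the replicate number as a block, 514 of all genes and the same 2 members passed. These libraries, with 23455167 to 24590278 counts, leave Pnp2 near the count minimum.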
